A study of Drosophila melanogaster with 72 samples.

Results

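The genes described here encode the subunits of the proteasome in the skeletal muscle of Drosophila melanogaster. They were taken by symbol, as every gene whose name begins with Prosalpha, Prosbeta, Rpn or Rpt followed by a digit, which gave 31 of the 15682 genes counted. Of these, 20 are the somatic subunits used in all tissues (3 Prosalpha, 5 Prosbeta, 9 Rpn and 3 Rpt genes). The other 11 carry the endings of testis paralogs, duplicated copies of a subunit gene made mainly in male germ cells. The symbols in the count files are partly older ones, so 12 further somatic subunit genes, such as Mov34 (now Rpn8) and Pros54 (now Rpn10), fall outside the rule and are given separately.

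The 72 stranded mRNA libraries came from 3 experiments. The age experiment held 18 libraries of the parental strain B3 and of the strains O1 and O3, which age later, at 1 and 6 weeks with 3 libraries each. The strain day course held 31 libraries of the same strains harvested at 4 points of the lighting schedule (zeitgeber time, ZT, in hours: ZT0, ZT6, ZT12 and ZT18), with 3 libraries a group except 2 for B3 and O3 at ZT6 and for B3 at ZT18, and 1 for O1 at ZT18. The transgenic day course held 23 libraries of mhc, which carries the Mhc-Gal4 driver alone, and of mhc>timeless, in which that driver, active in muscle, expresses the clock gene timeless (tim). It had 3 libraries a group, except 2 for mhc>timeless at ZT0. No sex, no fly age for the day courses and no harvest hour for the age experiment were given. Since the labels do not say that libraries of a group came from separate animals, p-values reflect no more than how these samples vary, in part perhaps technically.

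The proteasome is the protease that degrades proteins tagged with ubiquitin. Its barrel-shaped core is built of rings of alpha and beta subunits, and the active sites lie inside it on Prosbeta1, Prosbeta2 and Prosbeta5. A regulatory particle caps the barrel: its base, with the Rpt ATPases and the scaffolds Rpn1 and Rpn2, unfolds the substrate, and its lid, with Rpn3 to Rpn12, holds the deubiquitinase Rpn11 that removes the ubiquitin chain. In muscle the ubiquitin and proteasome system is known for the turnover of contractile proteins and for its part in muscle loss.

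Depth was 15.5 to 35.7 M counts a library in the age experiment; day-course libraries held 39.5 to 90.0 M for the strains and 53.1 to 170 M for the transgenic lines. The 12 muscle markers were detected in every library, with summed levels of 14176 to 36082 CPM (counts per 1000000 counts of the library, after TMM scaling of library sizes), and the 6 ovary markers summed to at most 1.31 CPM. In 4 libraries of the age experiment, O1 at 1 week replicates 2 and 3 and O3 at 1 week replicates 1 and 2, 13 testis markers summed to 169 to 699 CPM, against 1.47 to 130 CPM in the other 14. Counts of called genes that rest on these groups are therefore given with and without them; without them O1 and O3 keep 1 young library each, assumed to vary like the others. The muscle pieces hold several cell types, and in such bulk samples fewer cells of a type cannot be told apart from less RNA per cell. Prosalpha1 had 530 to 3032 counts in the 18 age libraries but 0 in every library of both day courses. Its near-identical copy CG30382 had 558 to 3255 counts in the age libraries, 0 in the strain day course and at most 4 in the transgenic libraries. Its levels are uncertain for this reason, and sums over the somatic subunits use the other 19 genes.

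In the parental strain B3 all 20 somatic subunit genes were higher at 6 weeks than at 1 week, and the rise was 2.16-fold in the median gene. In O1 the same genes began from a like level, and in O3 from a slightly lower one (median log2 difference from B3 at 1 week -0.18). They rose far less in both, by 1.23-fold in O1 and 1.40-fold in O3 in the median. The summed level of the 19 subunits in B3 was 1809, 1866 and 1950 CPM at 1 week and 4118, 4457 and 4284 CPM at 6 weeks. O1 had 2096, 1570 and 1624 CPM at 1 week and 2159, 2176 and 2366 CPM at 6 weeks. O3 had 1605, 1608 and 1701 CPM at 1 week and 2434, 2372 and 2449 CPM at 6 weeks. Every B3 library at 6 weeks lay far above every other library, and O1 at 1 week replicate 1 stood apart from its own group with a sum near the 6-week level.

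**Figure D1:**
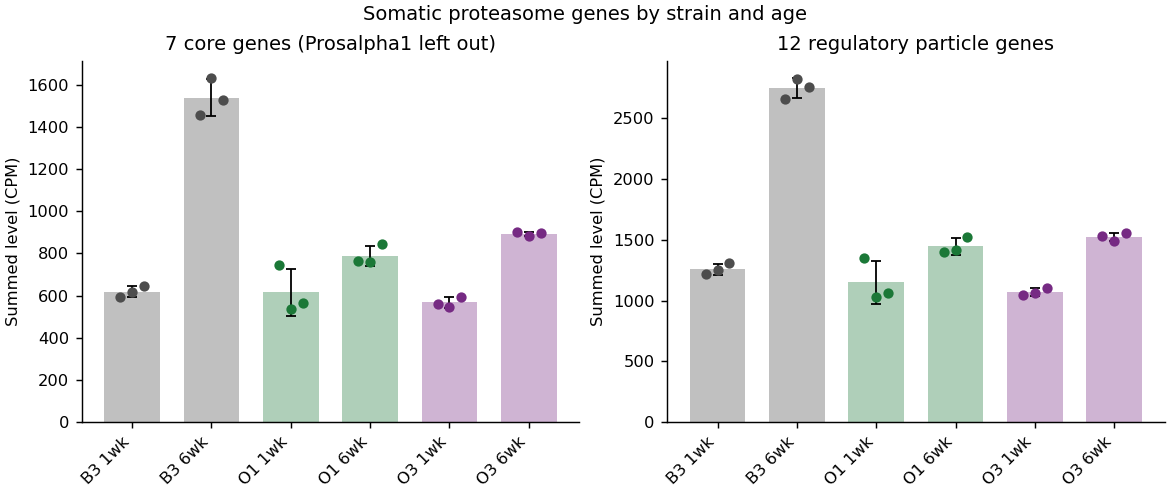
Summed level (CPM) of 7 core genes (left) and 12 regulatory particle genes (right) by strain and age. Bars are means, error bars are SD, points are the 3 libraries of each group, and Prosalpha1 is left out; B3 at 6 weeks is the tallest bar in both panels, and the first O1 library at 1 week lies above the other libraries of its group.

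In the core of B3, Prosbeta5 rose most and Prosbeta2 least, and both encode catalytic subunits. Prosbeta5, which carries the chymotrypsin-like site, was at 120.7, 122.5 and 131.3 CPM at 1 week and at 347.8, 416.2 and 376.1 CPM at 6 weeks. The lowest old library was well above the highest young one, and the log2 change was 1.61 ± 0.11 (SE; adjusted p = 3.1e-08). Prosbeta1, with the caspase-like site, went from 70.6, 71.75 and 75.75 CPM to 191.9, 230.8 and 210.6 CPM, a log2 change of 1.54 ± 0.10 (adjusted p = 4.2e-08). Prosbeta2, with the trypsin-like site, had the smallest change among the 5 beta genes taken by symbol. Its levels were 75.83, 83.74 and 86.49 CPM at 1 week and 151.8, 152.6 and 148.9 CPM at 6 weeks, again without overlap (0.88 ± 0.10, adjusted p = 5.3e-06). The structural subunit genes Prosbeta3 and Prosbeta7 rose by 1.54 and 1.32 on the log2 scale. Among the alpha genes, which form the outer rings and the gate of the barrel, Prosalpha1 changed by 1.46 and Prosalpha7 by 0.97.

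The regulatory particle of B3 rose as well, with larger changes in the base than in some lid genes. The ATPase gene Rpt3 was at 110.2, 111.7 and 121.6 CPM at 1 week and at 284.6, 318.6 and 299.9 CPM at 6 weeks (1.39 ± 0.11, adjusted p = 1.3e-07), while the ATPase gene Rpt4 changed by 1.04. The base scaffold Rpn1 reached 395.3, 435.5 and 426.2 CPM from 168.3, 169.7 and 176.8 CPM. Among the lid genes taken by symbol, Rpn3 had the largest change, from 87.09, 83.36 and 93.81 CPM to 230.9, 240.7 and 237.4 CPM (1.42 ± 0.10). The deubiquitinase gene Rpn11 went from 64.09, 63.82 and 72.78 CPM to 121.9, 122.2 and 121.3 CPM (0.86 ± 0.10, adjusted p = 5.7e-06). Rpn7 was at the low end of all 20, with 61.68, 65.37 and 68.92 CPM at 1 week and 94.63, 91.79 and 91.14 CPM at 6 weeks (0.50 ± 0.08, adjusted p = 1.3e-04). Even for Rpn7 the old and young libraries did not overlap. Against these 20 of 20 called genes, 21.8% of the 12445 genes tested were called higher with age in B3, and the median over all genes was -0.03. The median was 1.39 over the 8 core genes and 1.05 over the 12 regulatory genes taken by symbol, with subunits under older symbols left out.

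In O1, 13 of the 20 genes were called higher with age and none lower, where 10.4% of all genes were called higher. The median over the 20 was 0.30, against -0.03 over all genes. Prosbeta5 went from 135.2, 98.13 and 103.9 CPM at 1 week to 162.5, 163.1 and 185.9 CPM at 6 weeks (0.60 ± 0.10, adjusted p = 7.4e-04). All 3 old libraries exceeded all 3 young ones, with 1 young library close to them. Rpt3 had the largest value, 0.64 ± 0.10, from 128.4, 89.97 and 93.82 CPM to 156.4, 162.6 and 167.8 CPM. Prosbeta2 did not pass the test in O1, with 96.89, 70.35 and 74.35 CPM at 1 week and 78.32, 79.46 and 84.7 CPM at 6 weeks (0.01 ± 0.10, adjusted p = 0.97). The highest of these 6 values belonged to a young library. The other genes not called were Prosbeta7, Rpn6, Rpn7, Rpn9, Rpn11 and Rpn12, with values of 0.03 to 0.27.

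The O1 result rests on which young libraries are used. Replicate 1 at 1 week had a testis marker sum of 2.01 CPM, against 169 and 181 CPM in replicates 2 and 3, and it had the higher level of each of Prosbeta5, Prosbeta2 and Rpt3. Without the 4 testis-rich libraries 3 genes were called higher and 1, Prosbeta2, lower, with a median of 0.02. Leaving out replicate 1 instead gave 18 genes called higher and a median of 0.45. The part of testis RNA, or of the other traits of replicate 1, in these differences was not tested.

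In O3, 19 of the 20 genes were called higher with age, where 22.8% of all genes were called higher, and the median was 0.49 against -0.0019 over all genes. Rpt3 was at 97.43, 93.77 and 106.7 CPM at 1 week and 195.3, 185.6 and 182.4 CPM at 6 weeks (0.92 ± 0.11, adjusted p = 1.3e-05). Prosbeta5 rose from 111.6, 104 and 118.5 CPM to 214.1, 205.8 and 200.3 CPM (0.89 ± 0.10, adjusted p = 1.6e-05). Neither gene had overlapping ages. Prosbeta1 rose by 0.72, Prosbeta2 by 0.38 and Rpn11 by 0.47. Rpn7 was the gene not called, with 56.67, 60.35 and 59.65 CPM at 1 week and 57.6, 63.96 and 64.42 CPM at 6 weeks (0.07 ± 0.08, adjusted p = 0.45). When the testis-rich libraries were left out 18 were called higher, with a median of 0.45, and Rpt4 (0.17, adjusted p = 0.12) joined Rpn7 among those not called.

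The order of the genes by size of change was alike in all strains. Of the genes taken by symbol, Prosbeta5 had the largest change among the beta genes in B3, O1 and O3 alike. Rpt3 had it among the Rpt genes and Rpn3 among the Rpn genes. Prosbeta2, Rpt4 and Rpn7 had the smallest of their classes in each strain. Prosbeta3, without the testis-rich libraries, had the largest change of the beta genes in O1 and O3, and Rpn6 the smallest of the Rpn genes in O1. Over 19 genes, the changes in B3 and O1 had a rank correlation of 0.85, those in B3 and O3 0.78 and those in O1 and O3 0.91; without the testis-rich libraries they were 0.77, 0.78 and 0.77. These are descriptions over genes measured in the same libraries of each strain, which share depth and scaling, and genes are not independent replicates.

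**Figure D2:**
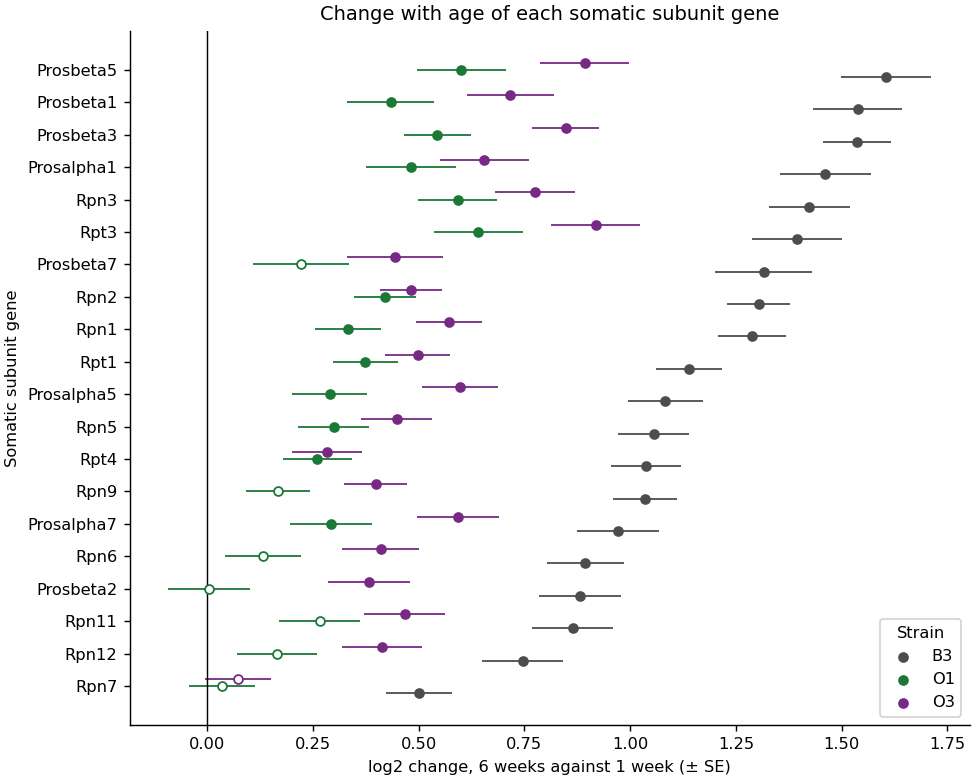
Log2 change with age (6 weeks against 1 week) of the 20 somatic subunit genes in B3, O1 and O3, sorted by the change in B3. Lines are SE, filled points are genes called at an adjusted p under 0.05 and open points are not; the B3 points lie to the right of those of O1 and O3 for every gene, from 0.50 for Rpn7 to 1.61 for Prosbeta5.

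The difference between strains in the change with age was tested directly as an interaction. The change in O1 was smaller than in B3 for 20 of 20 genes, where 8.28% of all genes were called in that direction, with a median difference of -0.81. It was largest for Prosbeta1, at -1.10 ± 0.15 (adjusted p = 3.2e-04), and smallest for Rpn7, at -0.47 ± 0.11 (adjusted p = 0.012). Prosbeta5 differed by -1.004, Prosbeta2 by -0.88 and Rpn11 by -0.60. For O3 against B3, 17 of 20 genes were called smaller, where 7.59% of all genes were, with a median of -0.64. Prosbeta7 had the largest difference there at -0.87, followed by Prosbeta1 and Rpn2, both at -0.82. The genes that did not pass were Prosalpha7 (-0.38, adjusted p = 0.073), Rpn11 (-0.40, adjusted p = 0.058) and Rpn12 (-0.33, adjusted p = 0.10). Without O3 at 6 weeks replicate 2, 14 were called. Leaving out the testis-rich libraries gave 20 called smaller in O1 (median -1.12) and 20 in O3 (median -0.72).

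Marker genes of tissues moved with age and strain in the same libraries. The sum of 12 muscle markers, none at 0, was 31105 to 34081 CPM in young and 22754 to 25867 CPM in old B3, 25755 to 28192 CPM in young and 16684 to 17521 CPM in old O1, and 31106 to 36082 CPM in young and 14176 to 15738 CPM in old O3. The sum was lower in the old libraries of each strain, without overlap. That of 9 gut markers, none at 0, was 5745 to 7962 CPM in young and 2429 to 3334 CPM in old B3, 10381 to 13351 CPM and 8594 to 10781 CPM in O1, and 4889 to 8983 CPM and 4052 to 9451 CPM in O3. The 8 fat body markers summed to 444 to 906 CPM in young and 92.2 to 112 CPM in old B3, to 304 to 888 CPM and 433 to 731 CPM in O1 and to 244 to 371 CPM and 652 to 1071 CPM in O3. Those of 5 hemocyte markers overlapped between the ages in each strain, over 383 to 766 CPM in all. Young libraries held 15.5 to 31.6 M counts and old ones 25.6 to 35.7 M. With all age libraries thinned to the smallest total, 20, 13 and 19 genes were again called in B3, O1 and O3. Reads in no feature were 20.8 to 27.9% in the young libraries and 13.0 to 17.6% in the old ones, without overlap. The part of tissue makeup, or of what sets the share of reads in no feature, in the proteasome values was not tested.

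At 6 weeks each somatic subunit gene was lower in both O strains than in B3. The comparisons of O1 and of O3 share the B3 libraries, in each experiment, so their values are set side by side. All 20 genes were called lower in O1, where 24.5% of all genes were, with a median of -0.90, which is 46.3% below B3. All 20 were called lower in O3, where 20.2% of all genes were, with a median of -0.80, or 42.5% below B3. Of these 20, the scaffold gene Rpn1 had the largest difference in both, -1.20 ± 0.08 in O1 and -1.17 ± 0.08 in O3. The old B3 libraries had 395.3, 435.5 and 426.2 CPM of it, the O1 libraries 177.6, 177.6 and 191.2 CPM and the O3 libraries 185.7, 182.8 and 191.9 CPM. The O strains overlapped each other and were less than 0.5 times the lowest B3 library.

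Among the catalytic genes at 6 weeks, Prosbeta5 differed from B3 by -1.16 in O1 and -0.88 in O3, Prosbeta1 by -1.01 and -0.86, and Prosbeta2 by -0.90 and -0.76. Rpn11 stood at 121.9, 122.2 and 121.3 CPM in the old B3 libraries, at 63.06, 65.32 and 74 CPM in those of O1 and at 68.64, 67.42 and 76.78 CPM in those of O3, log2 differences of -0.85 and -0.78. The smallest difference in O1 was that of Rpn7, at -0.57, and in O3 that of Prosalpha7, at -0.44. Between O3 and O1 at 6 weeks, edgeR called 0 of the 20 genes, and DESeq2 called 0 as well, while 1 had an unadjusted p under 0.05 and 5.17% of all genes were called; without O1 at 1 week replicate 1, or without the testis-rich libraries, 4 were called higher in O3. The counts for O1 and O3 against B3 stayed at 20 without the testis-rich libraries.

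At 1 week the strains lay close together. O1 had 1 gene called lower than B3, Rpn1, where 13.5% of all genes were called lower and 10.3% higher, and the median was -0.07. Young B3 libraries had 168.3, 169.7 and 176.8 CPM of Rpn1 and young O1 libraries 167.4, 132.3 and 133.8 CPM (-0.25 ± 0.08, adjusted p = 0.034), with the first O1 library near the B3 level; this call was lost on leaving out any of the 3 B3 libraries or O1 replicate 2 or 3. That comparison turned with the young O1 libraries used: 10 genes were called, all higher in O1 (median 0.23), without the testis-rich libraries, and 13, all lower (median -0.21), without replicate 1. O3 had 6 genes called lower than B3, where 16.7% of all genes were, with a median of -0.18: Prosbeta2, Rpn1, Rpn3, Rpn5, Rpn9 and Rpn11. Of these, Rpn1 had -0.45 ± 0.08 (adjusted p = 7.2e-04), from 122.8, 119.5 and 134.8 CPM in O3, all below B3, and Rpn11 had -0.38 ± 0.10 (adjusted p = 0.0083). Without the testis-rich libraries 3 were called lower, with 1 young O3 library left. Leaving out B3 replicate 2 or O3 replicate 1 at 1 week left 3 and B3 replicate 3 left 2, and without O1 at 1 week replicate 1 there were 10. Between O3 and O1, 0 genes were called by edgeR and 0 by DESeq2, with 4 at an unadjusted p under 0.05, where 6.63% of all genes were called; without the testis-rich libraries 10 were called lower in O3, with 1 library in each group.

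In the separate day-course libraries all 19 counted somatic genes were again lower in both O strains than in B3 when averaged over the 4 times, by less than at 6 weeks. In O1 all 19 were called lower, where 27.6% of all genes were, with a median of -0.33, which is 20.2% below B3. All 19 were called lower in O3 too, where 29.4% of all genes were, with a median of -0.29, or 18.4% below B3. Rpn1 ranged over 167.6 to 210.7 CPM in B3, 118.3 to 139.6 CPM in O1 and 116.8 to 139.8 CPM in O3. No O library reached the lowest B3 library, and the log2 differences were -0.59 ± 0.03 and -0.53 ± 0.03. The lid gene Rpn3 differed by -0.57 in O1 and -0.61 in O3 and Rpn11 by -0.50 and -0.43, whereas Rpt4 differed by -0.18 and -0.24. The catalytic genes Prosbeta5, Prosbeta1 and Prosbeta2 differed by -0.44, -0.30 and -0.34 in O1 and by -0.37, -0.29 and -0.21 in O3. Muscle marker sums in these libraries were 23550 to 27610 CPM in B3, 20176 to 27619 CPM in O1 and 18893 to 22833 CPM in O3. The 5 hemocyte markers, none at 0, summed to 356 to 712 CPM in B3, 376 to 655 CPM in O1 and 520 to 1015 CPM in O3. O3 lay above B3 without overlap at ZT0 (970 to 1015 against 569 to 644 CPM), ZT12 (734 to 841 against 625 to 675 CPM) and ZT18 (520 to 707 against 356 to 459 CPM). The 8 fat body markers, at most 1 of them at 0 in a library, summed to 63.3 to 514 CPM in B3, 143 to 533 CPM in O1 and 74.3 to 150 CPM in O3, with O3 below B3 without overlap at the same 3 times. Gut marker sums were 8211 to 12181 CPM in B3, 9560 to 11710 CPM in O1 and 6435 to 10409 CPM in O3. The part of these tissues was not tested.

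Between O3 and O1 in the day course, 3 genes were called higher in O3, where 13.3% of all genes were: Prosalpha5 by 0.13, Prosbeta2 by 0.12 and the lid gene Rpn6 by 0.11. Without ZT18, where O1 has 1 library, 0 were called. Across the 19 genes, the ranks of the O1 differences at 6 weeks and in the day course correlated at 0.73 and those of O3 at 0.76, between libraries that share no sample. Rpn1 and Rpn3 were at the low end in both sets.

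**Figure D3:**
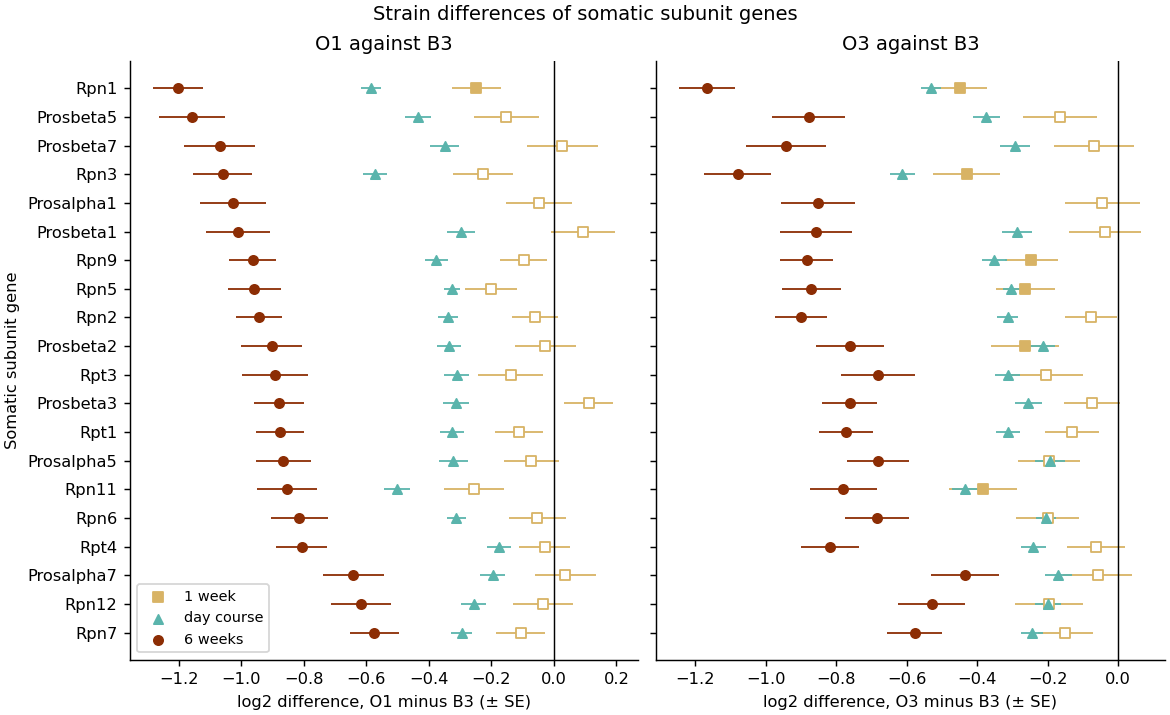
Log2 difference of each somatic subunit gene from B3 in O1 (left) and O3 (right), at 1 week (squares), over the day course (triangles) and at 6 weeks (circles). Lines are SE and filled symbols are called at an adjusted p under 0.05; the 6-week values reach -1.20 for Rpn1 in O1, and the day-course values of O1 lie between those of 1 and 6 weeks for each gene measured at all 3, and those of O3 do except for Prosalpha5 and Prosbeta2.

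Over the day in B3, each of the 19 genes had its lowest mean at ZT0 and its highest at ZT18, where 29.7% of all genes were lowest at ZT0 and 28.7% highest at ZT18. The range from lowest to highest mean was 0.26 on the log2 scale in the median subunit and 0.20 in the median of all genes. Joint tests of the 4 times called 7 of the 19, where 11.2% of all genes were called: Prosbeta5 (adjusted p = 0.0041), Prosbeta3, Prosbeta2, Prosalpha7, Prosalpha5, Rpt3 and Rpn5. Prosbeta5 had 121.6, 118.2 and 132 CPM at ZT0, 145.8 and 159.3 CPM at ZT6, 144.8, 152.5 and 138.8 CPM at ZT12 and 160.6 and 169 CPM at ZT18. Both ZT18 libraries were above all others and the ZT0 libraries below all others. Rpn11 (adjusted p = 0.13) and Prosbeta1 (adjusted p = 0.084) did not pass. The B3 count rests on ZT18, which has 2 libraries: 1 gene was called without ZT18, and 1 without its replicate C, while 11 were called without O1 at ZT6 replicate B, which enters through the shared estimate of spread. The hemocyte markers moved with time in these libraries, at 356 and 459 CPM at ZT18 and 569 to 712 CPM at the other times of B3, and their part was not tested.

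O3 also had all 19 genes lowest at ZT0, where 26.5% of all genes were, but 17 of the 19 were highest at ZT6, where 33.2% of all genes were. O1 likewise had 17 of the 19 highest at ZT6, where 25.7% of all genes were. It had 9 lowest at ZT12, where 21.8% of all genes were, and 9 at ZT18, where 27% were and O1 has 1 library. Hemocyte marker sums in O3 were highest at ZT0 (970 to 1015 CPM) and lowest at ZT18 (520 to 707 CPM), with 710 to 955 CPM between them, and their part was not tested. In O3, 9 genes were called for time of day, where 17% of all genes were, with the lowest adjusted p for Prosbeta2 (0.0047), Prosbeta1 (0.011), Rpn11 (0.013) and Rpn3 (0.016). Prosbeta2 in O3 had 56.04, 56.92 and 64.2 CPM at ZT0, 73.35 and 78.65 CPM at ZT6, 60.75, 64.3 and 68.05 CPM at ZT12 and 68.67, 70.53 and 68.62 CPM at ZT18. The 2 libraries of ZT6 were the highest, and without their replicate C the O3 count was 2. It was 4 without either of ZT0 replicates A and B, and 15 without ZT6 replicate A or without O1 at ZT6 replicate B. In O1 the genes were flatter, with a median range of 0.12 against 0.21 over all genes, and 1 was called, Prosbeta2 (adjusted p = 0.033), where 10.9% of all genes were called. It had 61.85, 67.46 and 56.3 CPM at ZT0, 69.26, 71.46 and 65.68 CPM at ZT6, 55.84, 58.07 and 56.75 CPM at ZT12 and 59.11 CPM at ZT18, with ZT6 above the other times apart from ZT0 replicate B. In 5 of the 30 fits that left out a library, those without ZT6 replicate A or B or any ZT12 library of O1, no gene was called, and without ZT0 replicate C 2 were.

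The daily pattern was not shown to differ between strains. The interaction of time and strain called 0 of 19 genes by edgeR for O1 against B3, where 1.4% of all genes were called, and DESeq2 called 2, with 13 at an unadjusted p under 0.05. For O3 against B3 edgeR and DESeq2 each called 0, with 4 at an unadjusted p under 0.05, where 1.55% of all genes were called.

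**Figure D4:**
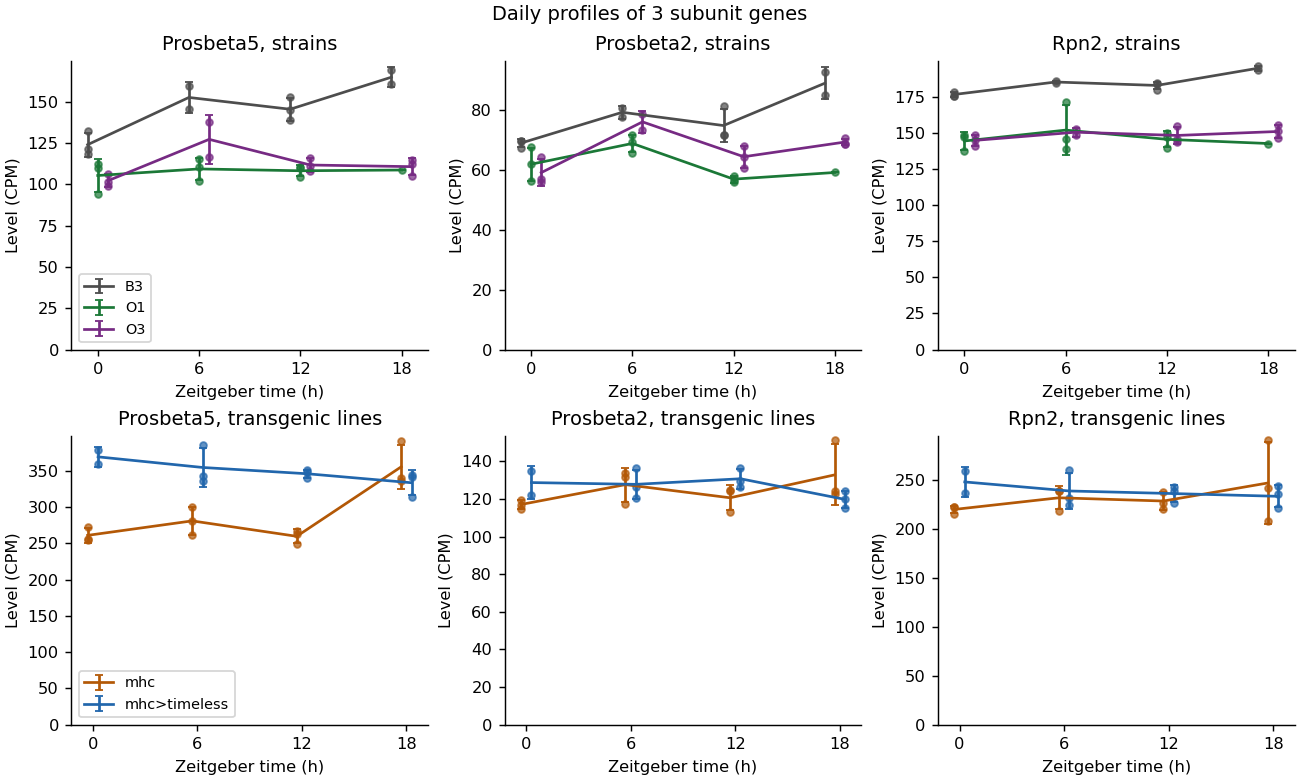
Level (CPM) of the catalytic core gene Prosbeta5, the catalytic core gene Prosbeta2 and the base scaffold gene Rpn2 over zeitgeber time (hours), in the strains (top) and the transgenic lines (bottom). Points are libraries, shifted sideways to keep lines apart, lines join group means and bars are SD; B3 lies above O1 and O3 for Rpn2 at each time, and mhc meets mhc>timeless at ZT18 for Prosbeta5.

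Expression of tim in muscle went with slightly higher levels of some core genes, and depth differed with genotype in the same direction. The driven gene tim was at 144 to 817 CPM in the 12 mhc libraries (median 278) and at 891 to 1611 CPM in the 11 mhc>timeless libraries (median 1213), without overlap. Depth in mhc was 53.1 to 71.9 M counts at ZT0, ZT6 and ZT12, with a sum of the 19 subunits of 2708 to 3130 CPM. At ZT18 mhc had 148 to 168 M and a sum of 3016 to 3645 CPM, and mhc>timeless had 124 to 170 M and 2904 to 3427 CPM. At ZT0, ZT6 and ZT12 depth and genotype therefore cannot be told apart. The 8 fat body markers, none at 0, summed to 1794 to 3321 CPM in mhc and 825 to 2641 CPM in mhc>timeless. The 5 hemocyte markers summed to 602 to 697 CPM in mhc and 648 to 790 CPM in mhc>timeless, which was higher without overlap at ZT0, ZT6 and ZT18. The part of either list in the results was not tested.

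Averaged over the 4 times, 6 of 19 genes were called higher in mhc>timeless and none lower, where 8.68% of all genes were called higher and 9.75% lower, and the median was 0.08 against 0.01 over all genes. Prosbeta5 had 256.1, 272.9 and 254.1 CPM in mhc at ZT0, 261.7, 281.5 and 299.8 CPM at ZT6, 263.3, 248.9 and 266.9 CPM at ZT12 and 340.6, 335.4 and 390.7 CPM at ZT18. In mhc>timeless it had 359.7 and 378.8 CPM at ZT0, 385.5, 335.6 and 342.8 CPM at ZT6, 339.4, 350.7 and 347.8 CPM at ZT12 and 344.6, 342.1 and 313.9 CPM at ZT18. The genotypes were apart at the first 3 times and overlapped at ZT18, and the difference over the day was 0.29 ± 0.03 (adjusted p = 8.6e-06). Prosbeta1 and Prosbeta3 differed by 0.18 each, the ATPase gene Rpt4 by 0.11, Prosalpha5 by 0.10 and Rpn7 by 0.09. Prosbeta2 (0.03, adjusted p = 0.70) and Rpn11 (0.08, adjusted p = 0.077) did not pass.

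At ZT18, where both genotypes have deep libraries, 0 of the 19 were called and the median was -0.09, with -0.09 for Prosbeta5, while without ZT18 13 were called higher (median 0.13). With all libraries thinned to the smallest total, 6 were called. Thinning adds counting noise but leaves the scaled mean levels the same on average, so it cannot tell depth and genotype apart. Other differences between the shallow and the deep libraries were not tested. Leaving out single libraries gave 3 to 10 genes. The count was 3 without mhc at ZT0 replicate 3, mhc at ZT18 replicate 1 or 2, or mhc>timeless at ZT0 replicate 3, at ZT6 replicate 1 or at ZT12 replicate 3, and 10 without mhc at ZT18 replicate 3.

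Time of day in mhc called 5 genes, Prosbeta5 (adjusted p = 1.1e-04), Prosalpha5, Rpn7, Rpn9 and Prosbeta3, where 22.6% of all genes were called. All 19 were highest at ZT18, where 29.5% of all genes were, and these are the deep mhc libraries: without ZT18 0 were called, 2 without ZT18 replicate 3 and 3 without ZT6 replicate 2. In mhc>timeless edgeR and DESeq2 each called 0 genes, with 0 at an unadjusted p under 0.05, where 19.1% of all genes were called, and all 19 were lowest at ZT18, where 21.1% of all genes were. The interaction of time and genotype called Prosbeta5 alone (adjusted p = 0.033), where 0.126% of all genes were called, and it lost that call in 16 of the 23 fits that left out a library and without ZT18.

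Counted per kilobase of exon, Prosbeta5 had the highest level of the 19 genes in each of the 26 groups. It stood at 110 CPM per kilobase in B3 at 1 week, against 41.7 for the lowest gene, Rpt4, and at 334 CPM per kilobase in B3 at 6 weeks, against 66.4 for the lowest, Rpn7. The ratio of the highest to the lowest level was 2.63 at 1 week and 5.02 at 6 weeks in B3, 2.42 and 3.35 in O1, and 2.74 and 4.08 in O3. The level per kilobase uses exon lengths of the BDGP6 annotation, which is not the build of the counts. Among the 19 genes, core genes also gained on regulatory genes. Their summed CPM was 0.492 ± 0.005 times that of the regulatory genes in B3 at 1 week and 0.560 ± 0.016 times at 6 weeks (SD, n = 3). It was 0.534 ± 0.015 and 0.545 ± 0.009 times in O1, and 0.530 ± 0.012 and 0.586 ± 0.009 times in O3. The old and young libraries of B3 and of O3 did not overlap in this ratio, and those of O1 did. The young libraries that are not testis-rich had 0.550 in O1, within the range of the old ones, and 0.538 in O3, below it. Subunits under older symbols are outside these sums. Of their core genes, Pros25 averaged 90.3 and 143 CPM in B3 at 1 and 6 weeks, Pros26 74.4 and 170. Pros28.1 had 72.1 and 127, Pros29 89.3 and 177, Pros35 72.1 and 124, CG17331 67.4 and 113.5. Of their regulatory genes, CG13349 had 93.9 and 171, Mov34 94.8 and 261, Pros26.4 106 and 185. Pros45 had 117 and 285, Pros54 103 and 262, Tbp-1 84.7 and 192. The gain is stated for the 19 genes alone.

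Of the 11 testis paralogs, Rpt3R and Prosbeta2R2 had counts in all 72 libraries and the other 9 in 20 to 70 of them. They encode germline versions of subunits of the core (Prosalpha3T, Prosalpha6T, Prosbeta2R1, Prosbeta2R2, Prosbeta4R1, Prosbeta4R2 and Prosbeta5R), of the base (Rpt3R, Rpt4R and Rpt6R) and of the lid (Rpn12R). All 11 had their highest level of the age experiment in O3 at 1 week replicate 2, led by Prosbeta5R at 13.2 CPM, Rpn12R at 10.1 CPM, Prosalpha6T at 9.61 CPM and Rpt6R at 9.26 CPM. Next came Rpt3R at 8.63 CPM, Prosbeta4R2 at 8.42 CPM, Rpt4R at 7.27 CPM and Prosbeta2R2 at 6.13 CPM, then Prosbeta2R1 at 5.01 CPM, Prosbeta4R1 at 3.24 CPM and Prosalpha3T at 2.26 CPM. In the 4 testis-rich libraries the paralogs summed to 20.2 to 83.1 CPM, against 1.299 to 16.2 CPM in the other 14. At these levels they are small beside the somatic sum of 1570 CPM or more in the same experiment.

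With age, all 11 were called lower in O3 (median -4.80), where 27.4% of all genes were called lower, and without the testis-rich libraries 0 were. Leaving out an O3 library at 6 weeks left 2, 3 and 4 called for replicates 1, 2 and 3, and leaving out O3 at 1 week replicate 1 or 2 left 7 or 3. Prosbeta2R1, Prosbeta4R1 and Prosbeta4R2 were at most 0.335 CPM in B3 and 0.160 CPM in old O3. Prosalpha3T was at most 0.322 CPM in B3 and 0.213 CPM in old O3. Prosalpha6T and Prosbeta5R were at most 0.469 CPM in B3 and 0.107 CPM in old O3, and Rpt4R at most 0.526 and 0.200 CPM. These genes passed the filter only with O1 or young O3 libraries. The O3 count draws on the same young libraries, so for these genes it is a description and no separate test. In B3 edgeR called 0, with 1 at an unadjusted p under 0.05, and DESeq2 called 1; without the testis-rich libraries 1 was called higher and 1 lower, and 1 higher without O1 replicate 1 at 1 or at 6 weeks or O3 replicate 2 or 3 at 1 week. In O1 edgeR and DESeq2 each called 0, with 0 at an unadjusted p under 0.05, and edgeR called 0 without the testis-rich libraries too. The O1 libraries at 6 weeks also held testis RNA, with marker sums of 130, 74.3 and 17.0 CPM and paralog sums of 16.2, 8.46 and 2.96 CPM. Against B3, 3 paralogs were called higher in O1 at 6 weeks, where 19.8% of all genes were called higher (Prosalpha6T, Prosbeta4R2 and Prosbeta5R), and 3 in O3 at 1 week, where 19.3% were (Prosbeta2R2, Prosbeta4R1 and Rpt3R). For Prosalpha6T, Prosbeta4R2, Prosbeta5R and Prosbeta4R1 the limit of the filter given above holds here too, so each O1 call is a description and no separate test. The fits that left out a library called 0 to 3 in O1, with 0 without B3 or O1 replicate 1 or 2 at 6 weeks and 1 in 10 further fits. In O3 they called 0 without B3 replicate 3 or O3 replicate 2 at 1 week, 1 without B3 replicate 2, 9 without O1 replicate 1 and 11 without O3 replicate 3. Without the testis-rich libraries 4 were called in O1 and 0 in O3. The part of testis RNA in these calls was not tested for any single gene.

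Rpt3R, a paralog of the base ATPase gene Rpt3, was counted where testis markers were low. In B3 it was at 0.872, 0.967 and 0.532 CPM at 1 week and 2.39, 2.77 and 2.70 CPM at 6 weeks, while the testis markers summed to 47.9, 17.0 and 7.19 CPM and then 2.54, 2.19 and 5.68 CPM. The old libraries had more Rpt3R and fewer testis markers, and the change of 1.73 ± 0.68 did not pass (adjusted p = 0.055), though it did with DESeq2 (adjusted p = 0.034). In the transgenic libraries, with testis marker sums of 1.03 to 19.02 CPM, its level was 0.524 to 1.26 CPM, from 32 to 177 counts, and Prosbeta2R2 had 13 to 56 counts. Reads shared between Rpt3R and Rpt3 cannot be told apart here.

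**Figure D5:**
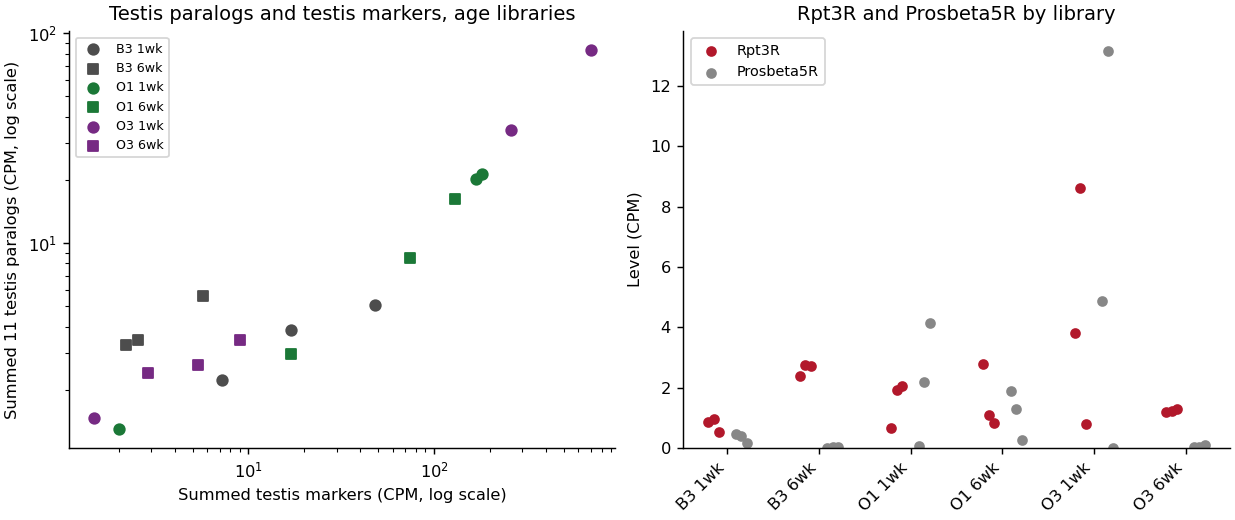
Left, summed level of the 11 testis paralogs against the summed testis markers in the 18 age libraries, both in CPM on log axes. Right, level (CPM) of Rpt3R and Prosbeta5R in each library; Prosbeta5R is high in the testis-rich O1 and O3 libraries at 1 week and near 0 in B3 at 6 weeks, where Rpt3R is at 2.39 to 2.77 CPM.

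In the strain day course 5 paralogs were tested. Prosbeta2R2 (0.91) was called higher and Rpt6R (-2.15) lower in O1 than in B3, where 28.6% and 27.6% of all genes were. Prosbeta2R2 (1.14) and Rpt3R (0.66) were called higher in O3, where 31.3% were. Rpn12R was also called higher in O3, but it had no count in any B3 library. It passed the filter only through O3 libraries (1.09 CPM at ZT18 replicate C), so its call is no test of a strain difference. The O1 count fell to 1 in 11 of the 30 fits that left out a library: none was higher without B3 at ZT0 replicate B or C, ZT6 replicate A, ZT12 replicate C or ZT18 replicate B, or O1 at ZT0 replicate A, ZT6 replicate B or ZT12 replicate A, and none lower without B3 at ZT6 replicate C, ZT12 replicate A or ZT18 replicate C. The O3 count, 3 with Rpn12R, was 1 without O3 at ZT6 replicate A or ZT12 replicate C, and at most 4. Rpt6R was at 2.51 CPM in B3 at ZT12 replicate A and at 0.110 to 0.322 CPM in the other B3 libraries. O3 at ZT18 replicate C had the highest paralog sum of its strain, 7.65 CPM, with a testis marker sum of 16.0 CPM. In the transgenic experiment 9 paralogs were tested, and edgeR and DESeq2 each called 0 between genotypes, with 0 at an unadjusted p under 0.05.

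The 12 somatic subunit genes under older symbols were put through the same comparisons. All 12 were called higher with age in B3 (median 0.93), 5 in O1 (median 0.16) and all 12 in O3 (median 0.47), where 21.8%, 10.4% and 22.8% of all genes were. The O1 count was 10 without replicate 1 at 1 week and 2 without replicate 2 or 3 at 1 week or replicate 3 at 6 weeks. Without the testis-rich libraries 8 were called in O3, and in O1 1 higher and 1 lower. Mov34, the lid partner of Rpn11, changed by 1.46 in B3, 0.53 in O1 and 0.55 in O3. Pros54, a ubiquitin receptor, had 1.34 in B3 and 0.24 in O3, and 0.14 in O1, where it did not pass (adjusted p = 0.25). At 6 weeks all 12 were called lower in O1 (median -0.996) and in O3 (median -0.90), with Pros54 at -1.44 in each, and in the day course all 12 were lower in both. The shares of all genes called lower were 24.5% and 20.2% at 6 weeks, and 27.6% and 29.4% in the day course. There the core alpha gene Pros35 ranged over 56.0 to 80.4 CPM in B3, 38.1 to 46.1 CPM in O1 and 39.7 to 56.8 CPM in O3, with O1 wholly below B3 and O3 overlapping it slightly. In mhc>timeless 1 was called higher, CG17331 (now Prosbeta4), by 0.13, where 8.68% of all genes were, and 6 were without mhc at ZT18 replicate 3.

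Other genes of the pathway were taken from a list of 19 that assemble, regulate or feed the proteasome. With age in B3, 14 were called higher and 1 lower (median 0.64), in O1 7 and 1 (median 0.12) and in O3 13 and 2 (median 0.26), where 21.8%, 10.4% and 22.8% of all genes were called higher and 20%, 12.4% and 27.4% lower. Leaving out O1 at 1 week replicate 2 left 5 called in O1, and replicate 1 gave 12. Without the testis-rich libraries 1 was called higher and 4 lower in O1, and 8 higher and 1 lower in O3. Uba1, the ubiquitin activating enzyme, averaged 273 ± 5.40 CPM in young and 534 ± 29.6 CPM in old B3 (SD, n = 3), a log2 change of 0.97, with 0.29 in O1 and 0.26 in O3. TER94, the ATPase that extracts ubiquitin-tagged proteins, changed by 1.02, 0.34 and 0.48. REG, an activator that binds the core in place of the regulatory particle, changed by 0.99, 0.60 and 0.71. The core regulator PI31 rose by 0.72 in B3 and had -0.13 in O1 (adjusted p = 0.32) and 0.00085 in O3 (adjusted p = 0.99). Pomp, the chaperone of core assembly, rose by 0.60 in B3 and had -0.03 in O1 (adjusted p = 0.85) and 0.19 in O3 (adjusted p = 0.075). The transcription factor cnc, the fly gene of the Nrf family, rose by 0.34, 0.16 and 0.30. The polyubiquitin gene Ubi-p63E rose by 0.61 in B3, fell by 0.23 in O3, and had 0.07 in O1 (adjusted p = 0.62). Npl4, a cofactor of TER94, was the gene that fell in B3, by 0.76, and it fell in O1 and O3 by 0.50 and 0.52; its level is far above that of the other genes on the list, and its count is uncertain.

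In the strains at 6 weeks, 16 of the 19 were called lower in O1 and 15 in O3 (median -0.47 in each), and 1 higher in each, Npl4. Over all genes 24.5% were called lower and 19.8% higher in O1, and 20.2% and 20% in O3. Uba1 differed by -1.01 and -1.09. O1 had 13 lower in the day course and O3 had 14, and 2 were higher in each, PI31 and maf-S. Of all genes there, 27.6% were called lower and 28.6% higher in O1, and 29.4% and 31.3% in O3. PI31 differed by 0.13 and 0.09, with 50.03 to 59.4 CPM in B3, 54.9 to 63.7 CPM in O1 and 53.8 to 62.6 CPM in O3, ranges that overlap.

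In mhc>timeless 3 of the 19 were called higher and none lower (median 0.02), where 8.68% of all genes were called higher, with the depth difference given above. Without mhc>timeless at ZT6 replicate 2, 4 were called higher and 1 lower. Pomp had 124.6, 132.1 and 123.6 CPM in mhc at ZT0, 126.9, 135.1 and 135.5 CPM at ZT6, 133.5, 124.1 and 130.8 CPM at ZT12 and 142.5, 138.6 and 150.6 CPM at ZT18. In mhc>timeless it had 170.5 and 170.9 CPM at ZT0, 180.7, 176.7 and 165.7 CPM at ZT6, 176.5, 186.6 and 179.5 CPM at ZT12 and 171.4, 168.3 and 164.9 CPM at ZT18. All 11 mhc>timeless libraries were above all 12 mhc libraries, and the difference was 0.38 (adjusted p = 8.3e-10). At ZT18 alone, deep against deep, it was 0.23 (adjusted p = 0.0079). CG5384 (now Usp14), a deubiquitinase bound to the proteasome, differed by 0.16 and Ufd1-like, a cofactor of TER94, by 0.10 over the day, and at ZT18 alone by -0.03 and -0.06, where neither passed.

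The COP9 signalosome is a complex of related architecture to the lid, with 9 genes counted. With age in B3 4 were called higher (median 0.13), where 21.8% of all genes were, among them alien by 0.50 and CSN5, the counterpart of Rpn11, by 0.58. In O1 2 were called higher, where 10.4% of all genes were. That count was 0 without O1 replicate 2 or 3 at either age, and 1 without B3 replicate 1 or 2 at 6 weeks, O1 replicate 1 at 6 weeks, O3 replicate 1 or 2 at 1 week, O3 replicate 1 or 3 at 6 weeks, or the testis-rich libraries. In O3 4 were called higher and 1 lower, where 22.8% and 27.4% of all genes were, and 3, all higher, without O3 replicate 2 at 1 week, O3 replicate 2 or 3 at 6 weeks, or the testis-rich libraries. At 6 weeks 6 were called lower and 1 higher in O1 (median -0.31) and 3 lower in O3 (median -0.11). Among all genes 24.5% were called lower and 19.8% higher in O1, and 20.2% lower in O3. CSN4 differed most in the day course, at 54.3 to 71.2 CPM in B3, 36.3 to 43.8 CPM in O1 and 31.3 to 41.1 CPM in O3, with no O library in the B3 range and log2 differences of -0.65 and -0.84. Of the 8 tested there, 4 were lower and 1 higher in O1, where 27.6% of all genes were lower and 28.6% higher. In O3 4 were lower, where 29.4% of all genes were. In mhc>timeless 2 of the 9 were called lower, CSN7 by -0.10 and alien by -0.08, where 9.75% of all genes were, and 1 without mhc>timeless at ZT0 replicate 2.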

How the data were processed

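Gene expression was measured by stranded mRNA sequencing. The authors deposited raw counts per gene and library, whole numbers with no normalization. Per the submitters' processing notes, the tools were BWA, STAR and HTSeq (versions and roles unnamed) on build dm3. Annotation and strand setting (not given in the sources used here) decide how reads of overlapping, antisense and near-identical genes were counted. Antisense genes cover 15.7% of the exon bases of Rpn9, 7.93% of Prosbeta2 and 7.11% of Prosbeta5. Lines that name no gene were left out; reads in no feature were 7.11 to 27.9% of reads.

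Counts were tested with edgeR 4.0.16 in R 4.3.3, fitting a quasi-likelihood model to each experiment with 1 coefficient a group, filterByExpr and TMM scaling. The tests covered 12445, 12295 and 12727 genes, with Benjamini-Hochberg adjustment over all of them and calls at an adjusted p under 0.05. All adjusted p-values of single genes come from these tests, or from DESeq2 1.42.0 where named. Time of day was a joint test of time-point means. CPM are counts per 1000000 of effective library size; 3 counts correspond to 0.0176 to 0.194 CPM, for counting error only. Tests were checked on simulated counts whose spread was set below the common spread fitted to these libraries. The check therefore does not show how the tests behave at the spread of the real libraries. Replicate libraries differed beyond sampling noise (chi-square per degree of freedom of 12.1 to 181), so none was treated as a duplicate.

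Members and gene lists (related genes, COP9 signalosome, markers of muscle, testis, accessory gland, gut, fat body, hemocyte and ovary) were chosen with earlier results of these data known. Named genes are those with the largest and smallest change of each somatic class, the 4 of lowest p in a joint test, Prosbeta1, Prosbeta2, Prosbeta5 and Rpn11, the testis paralogs that reach 1 CPM, and list members as examples. Accessory gland markers were highest in O3 at 1 week replicate 2 (1472 CPM), fat body markers summed to 63.3 to 3321 CPM and hemocyte markers to 356 to 1015 CPM over all libraries. Alternatives were RLE factors, no filter, a replicate block, DESeq2, thinning, leaving out each library, the testis-rich libraries or ZT18, and ZT18 alone in the transgenic experiment. Thinning of the age libraries and both ZT18 alternatives of the transgenic experiment were chosen after seeing the depths. Sequences were not analysed here.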

Additional observations from a re-analysis of the deposited data

Results flagged for a closer look

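Each result below is a difference between strains or genotypes in the same contrast, found by a test of the difference itself with edgeR. The change with age was smaller in O1 than in B3 for 20 of 20 somatic subunit genes and smaller in O3 than in B3 for 17 of 20. Among the named genes, the difference of the O1 and B3 changes was -1.10 for Prosbeta1, -1.0 for Prosbeta5, -0.60 (-0.598) for Rpn11 and -0.47 (-0.467) for Rpn7. The difference of the O3 and B3 changes was -0.82 (-0.821) for Prosbeta1 and -0.71 (-0.713) for Prosbeta5. Time of day differed between mhc>timeless and mhc for 1 of 19 genes, Prosbeta5 (adjusted p = 0.0327), and there the mhc libraries at ZT18 are deeper than the other mhc libraries. That call was lost in 16 of the 23 fits that left out a library, and without ZT18.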

How the results depend on the processing

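Counts below are somatic subunit genes called. The age change in B3, both O strains against B3 at 6 weeks and in the day course, and the age by strain difference of O1 kept every gene called, in the same direction, under all alternatives that gave a value. Without the testis-rich libraries, which leaves 1 young library each in O1 and O3, age in O1 had 4, O1 against B3 at 1 week 10 with the direction turned, O3 against B3 at 1 week 3, O3 against O1 at 1 week 10 and at 6 weeks 4; the cause was not tested. Single values turned there: for age in O1, Prosalpha5 -0.0033 and Prosbeta2 -0.28, and for O1 against B3 at 1 week, Prosalpha5 0.25, Rpn12 0.29, Rpt4 0.24 and Prosbeta2 0.29. Of the other lists, the older-symbol subunits of O1 against B3 at 1 week had 2 called, all higher, and the related genes 5 for age in O1, 6 for O1 against B3 and 2 for O3 against O1 at 1 week, in the opposite direction to before. For O1 against B3 at 1 week no filter gave 0 and DESeq2 gave 2.

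DESeq2 called 14 genes for time of day in B3, 3 in O1 and 15 in O3, 2 for time by strain in O1 and 2 for time by genotype. Without ZT18, O3 against O1 in the day course had 0, time of day in B3 1, mhc>timeless against mhc 13, and time of day in mhc and time by genotype 0. At ZT18 only, mhc>timeless against mhc had 0, with values turned for Prosalpha5 (-0.14), Prosbeta5 (-0.0924), Rpt4 (-0.0542), Prosbeta1 (-0.068), CG5384 (-0.0323), Ufd1-like (-0.057) and CG17331 (-0.038).

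Leaving out 1 library at a time gave 9 to 18 for age in O1, 18 to 19 in O3, 14 to 20 for age by strain in O3, 0 to 13 and 2 to 10 for O1 and O3 against B3 at 1 week, 0 to 4 for O3 against O1 at 6 weeks and 2 to 3 in the day course. It gave 1 to 11 for time of day in B3 (1 without B3 at ZT18 replicate C), 0 to 2 in O1, 2 to 15 in O3 (2 without O3 at ZT6 replicate C), 0 to 1 for time by strain in O1, 3 to 10 for mhc>timeless against mhc, 2 to 7 for time of day in mhc (2 without mhc at ZT18 replicate 3) and 0 to 1 for time by genotype. No value exists for O1 without its single ZT18 library.

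The replicate labels do not pair the samples: deviations of same-labelled libraries had a median correlation of -0.09 in the age experiment, 0.01 in the strain day course and 0.01 in the transgenic one. With a replicate block, time of day in O1 had 2 genes called, against 1. Of 7352 values of named genes under alternatives, 7087 kept direction and side of the threshold, 178 lost the call, 74 gained one and 13 turned. The filter kept 11 testis paralogs in the age experiment, which has the shallowest libraries, 5 in the strain day course and 9 in the transgenic one.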
